A study of Mus musculus with 4 samples.

Results

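A set of 8 genes of fatty acid and lipid storage metabolism, chosen by name, was read in the RNA of mouse fetal oocytes. They were Acly, Acaca, Fasn, Scd1, Scd2, Srebf1, Plin2 and Cpt1a, and each symbol matched 1 of the 55401 Ensembl gene identifiers in the count tables through GENCODE annotation of GRCm38, so that 8 of 8 genes were found. The oocytes were germ cells of E18.5 female fetuses (late gestation), sorted from ovaries by flow cytometry on the surface antigen SSEA-1, and the submitters label them primordial germ cells. The mothers were ICR mice fed a normal (ND) or a high-fat (HFD) diet for 4 months from a young age, then mated with ND males. No engineered allele is given for either group, and the 2 ND and 2 HFD libraries differed by label in the diet of the mother alone. Each library pooled oocytes from several fetuses and was amplified with SMART-Seq2, a full-length cDNA method for small amounts of polyadenylated RNA. Whether the pools of a diet came from separate litters is not given, so that p-values measure the spread between these libraries, which may be technical.

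Cytosolic acetyl-CoA is made from citrate by ATP citrate lyase (Acly), carboxylated to malonyl-CoA by acetyl-CoA carboxylase (Acaca) and built into palmitate by fatty acid synthase (Fasn). Stearoyl-CoA desaturases (Scd1, Scd2 and their paralogs) place a double bond in saturated fatty acids, and the transcription factor SREBP1 (Srebf1) drives the genes of this route. Fatty acids are stored as triglyceride in lipid droplets, which perilipin 2 (Plin2) coats, or enter mitochondria through carnitine palmitoyltransferase 1A (Cpt1a), the step that malonyl-CoA inhibits. Oocytes hold lipid droplets and use fatty acid oxidation as an energy source during their growth and maturation.

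The libraries held between 5723605 and 8223255 counted reads, and 3 counts, taken as the floor of detection, corresponded to 0.365 to 0.524 CPM, a gene's count over its library total times 1000000. Reads that fall on genes not expected in the cells were measured on 1107 olfactory receptor genes, and a gene was said to exceed background where its reads per kilobase of exon passed the 99th percentile of these genes in the same library (7.35 to 12.5 reads per kilobase) and its count passed 3. By this measure 24.8% and 22.2% of 21897 protein-coding genes exceeded background in ND replicates 1 and 2, and 13.5% and 15.3% in HFD replicates 1 and 2. Of 10 germ cell markers, 9, 8, 7 and 7 exceeded background in the same order, among them Dazl in each library, with 14247, 29465, 2926 and 49 counts. Ddx4, with 49, 97, 5 and 14 counts, did so in the ND libraries only, and Pou5f1 in no library. Of 8 stromal markers, 6, 4, 3 and 5 did so, and their sum was 2842, 67.4, 2220 and 7674 CPM. In bulk samples, fewer cells of a type and less RNA per cell cannot be told apart. Where 4 values are given in a row, they are those of ND replicates 1 and 2, then of HFD replicates 1 and 2.

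Scd1 and Scd2 lie in the desaturase cluster of chromosome 19 and code for closely related enzymes, so that the sequences that separate their reads are shown first. Their coding sequences were identical at 962 of 1065 aligned bases (90.3%), and the longest identical run was 147 bases. The first pair is the stretch of 150 coding bases in exon 4 where the genes are most alike, with 149 bases identical. Capitals mark the bases that differ.
Scd1, chr19:44401737-44401886, minus strand: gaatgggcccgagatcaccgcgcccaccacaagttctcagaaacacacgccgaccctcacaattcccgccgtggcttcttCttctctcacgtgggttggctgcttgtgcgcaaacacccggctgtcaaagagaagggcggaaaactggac
Scd2, chr19:44299621-44299770, plus strand: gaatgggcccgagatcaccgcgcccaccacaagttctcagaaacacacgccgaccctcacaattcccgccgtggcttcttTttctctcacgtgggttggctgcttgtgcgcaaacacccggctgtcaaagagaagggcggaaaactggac
The second pair is the stretch of 150 coding bases in exon 2 where they are least alike, with 118 bases identical and 32 different.
Scd1, chr19:44406561-44406710, minus strand: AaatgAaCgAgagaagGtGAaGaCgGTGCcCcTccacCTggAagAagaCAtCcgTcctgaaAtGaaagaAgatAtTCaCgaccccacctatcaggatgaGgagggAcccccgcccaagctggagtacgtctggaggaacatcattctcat
Scd2, chr19:44294963-44295112, plus strand: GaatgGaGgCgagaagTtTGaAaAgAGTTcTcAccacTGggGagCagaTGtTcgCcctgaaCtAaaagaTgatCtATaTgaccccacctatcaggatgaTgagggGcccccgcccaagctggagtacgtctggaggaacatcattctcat
The coordinates are those of GRCm38, and each sequence is read 5′ to 3′ on the strand of its gene. Over the whole annotated transcripts, 145 of the 5461 different 50-base windows of Scd2 also occurred in Scd1, and 217 (3.97%) occurred in any other gene. For Scd1, 223 of 4888 windows (4.56%) were shared. Reads from the shared windows cannot be given to 1 of the genes by sequence, and the authors' handling of such reads is not given in the sources used here.

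Scd2, the desaturase best known from brain, had the widest spread of the 8 genes and the highest counts in each library but ND replicate 1 (ENSMUSG00000025203, chr19:44293674-44306864 of GRCm38, plus strand). Its reads numbered 41 and 1306 under ND and 2998 and 14748 under HFD. In CPM these were 4.99 (ND replicate 1), 167 (ND replicate 2), 464 (HFD replicate 1) and 2577 (HFD replicate 2). Both HFD libraries thus lay above both ND libraries, and as a ratio the ND libraries differed from each other more than ND replicate 2 differed from HFD replicate 1. Counting error was small beside these differences, with exact 95% Poisson intervals of 158 to 176 CPM in ND replicate 2 and 448 to 481 CPM in HFD replicate 1. Against the background limit, Scd2 stood at 0.884 times the limit in ND replicate 1, and at 26.6, 74.7 and 216 times in ND replicate 2, HFD replicate 1 and HFD replicate 2. On reads per kilobase it ranked 6689 of 21897 protein-coding genes in ND replicate 1, then 667 and 699, and 112 in HFD replicate 2. Mean CPM was 86.1 ± 115 for ND and 1521 ± 1494 for HFD (SD, n = 2 each). The fitted log2 fold change, HFD over ND, was 3.71 (standard error, SE, 2.45, adjusted p = 0.559 over 19335 genes, edgeR's quasi-likelihood test, unadjusted p = 0.187). This test therefore did not separate the difference from the spread between libraries. In DESeq2's Wald test on all genes Scd2 passed (log2 fold change 3.61, adjusted p = 0.0404), where 1360 of 5601 genes given an adjusted p (24.3%) were called higher. On the genes kept by edgeR's filter, DESeq2 gave an adjusted p of 0.167, and over the 13 alternatives the adjusted p of Scd2 ran from 0.0404 to 0.834. The log2 fold change was 7.83 without ND replicate 2 and between 2.66 and 4.12 with each other library left out, the lowest without ND replicate 1.

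**Figure D1:**
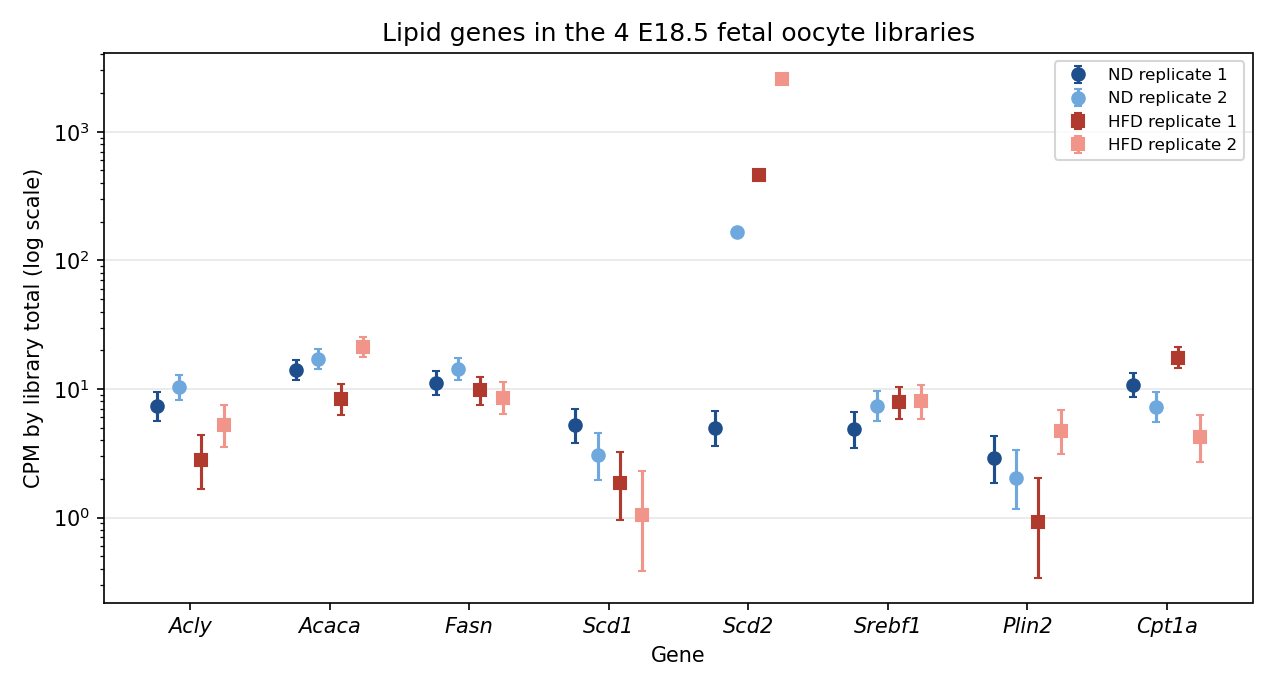
CPM of the 8 lipid genes (log scale) in each of the 4 libraries, with blue circles for ND and red squares for HFD; bars are exact 95% Poisson intervals of the count and cover counting error only. Scd2 ran from 4.99 to 2577 CPM, while each of the other 7 genes stayed between 0.929 and 21.3 CPM.

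Scd1, the desaturase best known from liver and fat (ENSMUSG00000037071, chr19:44394455-44407879, minus strand), had 43 and 24 reads under ND, then 12 and 6 under HFD. Both HFD libraries lay below both ND libraries, at 1.86 and 1.05 CPM against 5.23 and 3.07, though the counting intervals of ND replicate 2 (1.97 to 4.57 CPM) and HFD replicate 1 (0.960 to 3.25 CPM) overlapped. Scd1 exceeded background in ND replicate 1 alone, at 1.04 times the limit, so that the values of the other libraries were at the level of stray reads. Its fitted log2 fold change was -1.32 (SE 0.78, adjusted p in edgeR = 0.488, unadjusted p = 0.139). Leaving out 1 library at a time moved it between -2.67 and -0.64. The direction was opposite to that of Scd2, and in HFD replicate 2 the library with 14748 reads on Scd2 held 6 on Scd1. The neighbouring paralog Scd3 had 16, 18, 5 and 8 counts and exceeded background in 0 libraries. Scd4, the remaining paralog of the cluster, had 143, 2, 9 and 17 counts and exceeded background in ND replicate 1 alone. Its log2 fold change of -2.11 (SE 1.62, adjusted p in edgeR = 0.624) came with that 1 high library.

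The enzymes that make palmitate were near the background limit in the 4 libraries. Acly (ENSMUSG00000020917, chr11:100476353-100528000, minus strand) was counted 61 and 81 times under ND and 18 and 30 times under HFD. It exceeded background in both ND libraries, at 1.36 and 1.71 times the limit, and in neither HFD library, at 0.464 and 0.456 times. Mean CPM was 8.89 ± 2.08 for ND and 4.01 ± 1.74 for HFD (SD, n = 2 each), and the groups did not overlap. The counting intervals of the nearest libraries did overlap, at 5.67 to 9.53 CPM in ND replicate 1 and 3.54 to 7.48 CPM in HFD replicate 2 (exact 95% Poisson). The log2 fold change was -1.28 (SE 0.49, unadjusted p = 0.0409, adjusted p in edgeR = 0.406). Acly was the 1 gene of the 8 with an unadjusted p under 0.05, where 6.41% of all genes tested were lower and 4.82% higher at that limit. Its log2 fold change was lowest without ND replicate 1, at -1.62, and below 0 whichever library was left out. The unadjusted p was under 0.05 in 5 of 13 alternatives.

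Acaca (ENSMUSG00000020532, chr11:84129672-84401651, plus strand) had 116 and 134 reads under ND, then 54 and 122 under HFD. Its values in the HFD libraries, 8.36 and 21.3 CPM, lay on either side of the ND values of 14.1 and 17.1 CPM. Although Acaca had the second highest counts of the 8 genes in ND replicate 2, its transcripts are long, with 17074 exonic bases, and per kilobase it was below the background limit in each library, at 0.431 to 0.873 times the limit. The log2 fold change was -0.29 (SE 0.67, adjusted p in edgeR = 0.919). Of its 50-base windows 30.4% also occurred in another gene, most of them in the processed pseudogene Gm5182, which had 0 counts in the 4 libraries. Whether reads from such windows were counted is not given in the sources used here. With the exon length reduced by the share of these windows, a calculation added after the data were seen, Acaca stood at 1.15 and 1.26 times the limit in the ND libraries and below it in the HFD libraries. The olfactory receptor genes that set the limit kept their full exon lengths.

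Fasn (ENSMUSG00000025153, chr11:120805846-120824547, minus strand) was counted 92 and 112 times under ND and 63 and 49 times under HFD. On CPM by library total, both HFD values (9.76 and 8.56) were below both ND values (11.2 and 14.3). After TMM normalization, which scaled the libraries by 1.02, 0.940, 0.692 and 1.51, the values were 10.97, 15.2, 14.1 and 5.68 CPM and the groups overlapped. Fasn exceeded background in ND replicate 2 alone, at 1.14 times the limit. The log2 fold change was -0.41 (SE 0.73, adjusted p in edgeR = 0.884), and it was 0.11 without HFD replicate 2.

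Srebf1 (ENSMUSG00000020538, chr11:60199089-60222581, minus strand), whose product activates the genes above, had the narrowest range of counts of the 8 genes, with 40 and 58 under ND and 51 and 46 under HFD. It exceeded background in ND replicate 2 and HFD replicate 1, at 1.15 and 1.23 times the limit. By library total the HFD values (7.90 and 8.04 CPM) were above the ND values (4.86 and 7.42), and after TMM normalization they overlapped, at 11.4 and 5.34 against 4.77 and 7.89 CPM. The log2 fold change was 0.40 (SE 0.63, adjusted p in edgeR = 0.866) and became -0.35 without HFD replicate 1. Exons of Srebf1 overlap 109 bases of Rai1 on the opposite strand, and whether the counting used strand is not given in the sources used here.

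Plin2 (ENSMUSG00000028494, chr4:86648386-86670060, minus strand), the coat protein of lipid droplets, had 24, 16, 6 and 27 counts. It was below the background limit in each library, at 0.233 to 0.805 times, and the HFD values (0.929 and 4.72 CPM) lay on either side of the ND values (2.92 and 2.05). Its log2 fold change was -0.16 (SE 0.56, adjusted p in edgeR = 0.955), which turned to 0.19 with library sizes alone as the scaling and to 0.21 without HFD replicate 1. Plin2 was thus not separated from stray reads by this limit. With the 95th percentile of the olfactory receptor genes as the limit, it exceeded background in ND replicate 1 alone. It had 6.83 reads per kilobase there, against a limit of 6.61.

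Cpt1a (ENSMUSG00000024900, chr19:3322334-3385733, plus strand), the entry step of mitochondrial fatty acid oxidation, was counted 89 and 57 times under ND and 113 and 24 times under HFD. The HFD libraries held both the highest value, 17.5 CPM, and the lowest, 4.19 CPM. Cpt1a exceeded background in the replicate 1 libraries, at 1.37 times the limit in ND and 2.01 times in HFD, and in neither replicate 2 library. The log2 fold change was 0.60 (SE 1.10, adjusted p in edgeR = 0.889). It was -1.82 without HFD replicate 1 and 1.46 without HFD replicate 2.

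**Figure D2:**
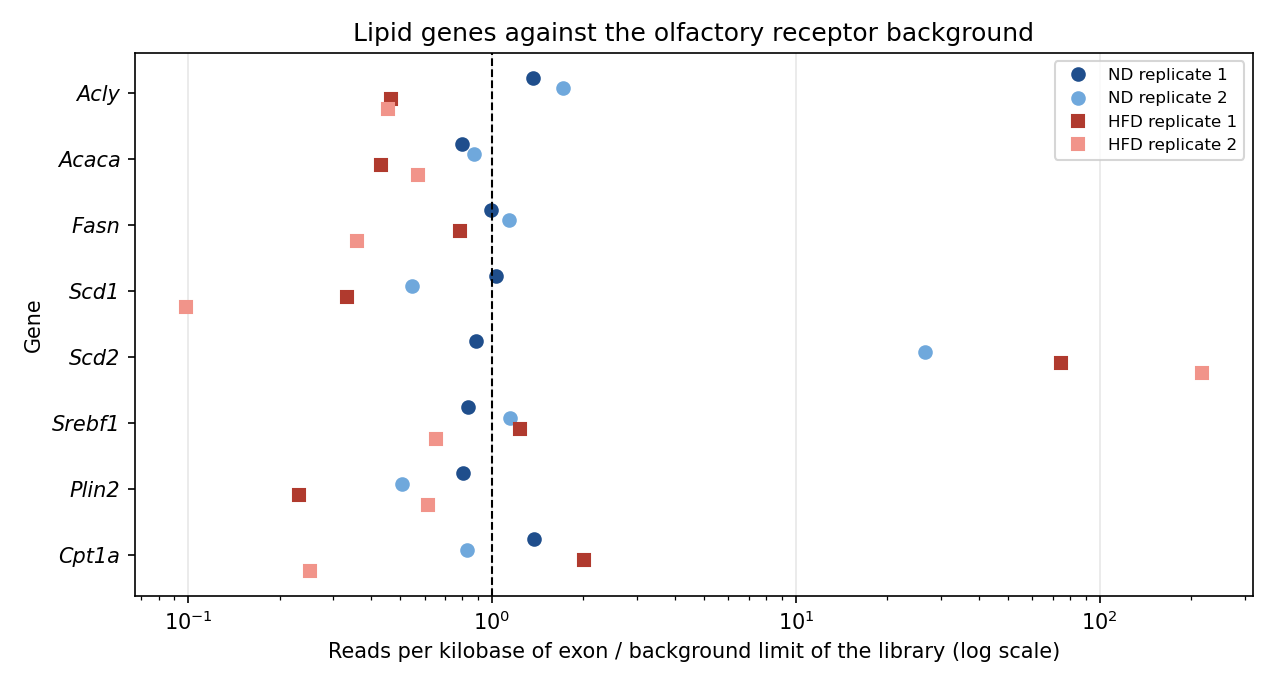
Reads per kilobase of exon of each lipid gene divided by the background limit of its library (log scale), with the dashed line at the limit. Scd2 stood at 26.6 to 216 times the limit in 3 libraries, Acly above it in the ND libraries only, and Acaca and Plin2 below it in each library when all exonic bases are counted.

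Levels of different genes can be compared per kilobase of exon within a library. In ND replicate 1 the 8 genes lay close together, from 6.79 reads per kilobase for Acaca to 11.6 for Acly and Cpt1a, with Scd2 at 7.50 among them. In ND replicate 2 Scd2 led with 239 reads per kilobase, followed by Acly with 15.3, and Plin2 was lowest with 4.56. In HFD replicate 1 Scd2 had 549, Cpt1a 14.8 and Srebf1 9.05 reads per kilobase, and Plin2 was again lowest with 1.71. In HFD replicate 2 Scd2 had 2699 reads per kilobase, Srebf1 8.16 and Plin2 7.69, and Scd1 was lowest with 1.23. Apart from Scd2, which led in 3 libraries, the order of the genes changed from library to library.

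Over the 8 genes, 3, 4, 3 and 1 exceeded background in ND replicates 1 and 2 and HFD replicates 1 and 2. No gene exceeded it in all 4 libraries, 6 did so in at least 1 library and 2 (Acaca and Plin2) in none, Acaca passing in both ND libraries with the exon length reduced as above. Among protein-coding genes 42.9% exceeded background in at least 1 library and 3.4% in all 4. In HFD replicate 2, Scd2 was the 1 gene of the 8 above background.

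All 8 genes passed edgeR's filter on low counts. With edgeR's quasi-likelihood test, 0 of 8 were called higher and 0 of 8 lower at an adjusted p under 0.05 and a fold change over 1.5, where 0% of the 19335 genes tested were called in either direction and the smallest adjusted p was 0.406. Before adjustment, 0 were higher and 1 lower at p under 0.05. DESeq2 on all genes called Scd2, and limma-voom called 0 of the 8. Scd2 and Srebf1 had both HFD values above both ND values on CPM by library total, a pattern seen for 13.9% of all genes tested. Acly, Fasn and Scd1 had both HFD values below both ND values, which 13.4% of all genes showed. After TMM normalization Scd2 stayed above and Acly and Scd1 below, while Srebf1 and Fasn overlapped. The median log2 fold change of the 8 genes was -0.22, against 0.03 over all genes tested. With library sizes alone as the scaling, the median over all genes moved to 0.21 and that of the 8 genes to 0.06. Without HFD replicate 1 the median of the 8 genes was -0.83, with -0.10 over all genes.

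**Figure D3:**
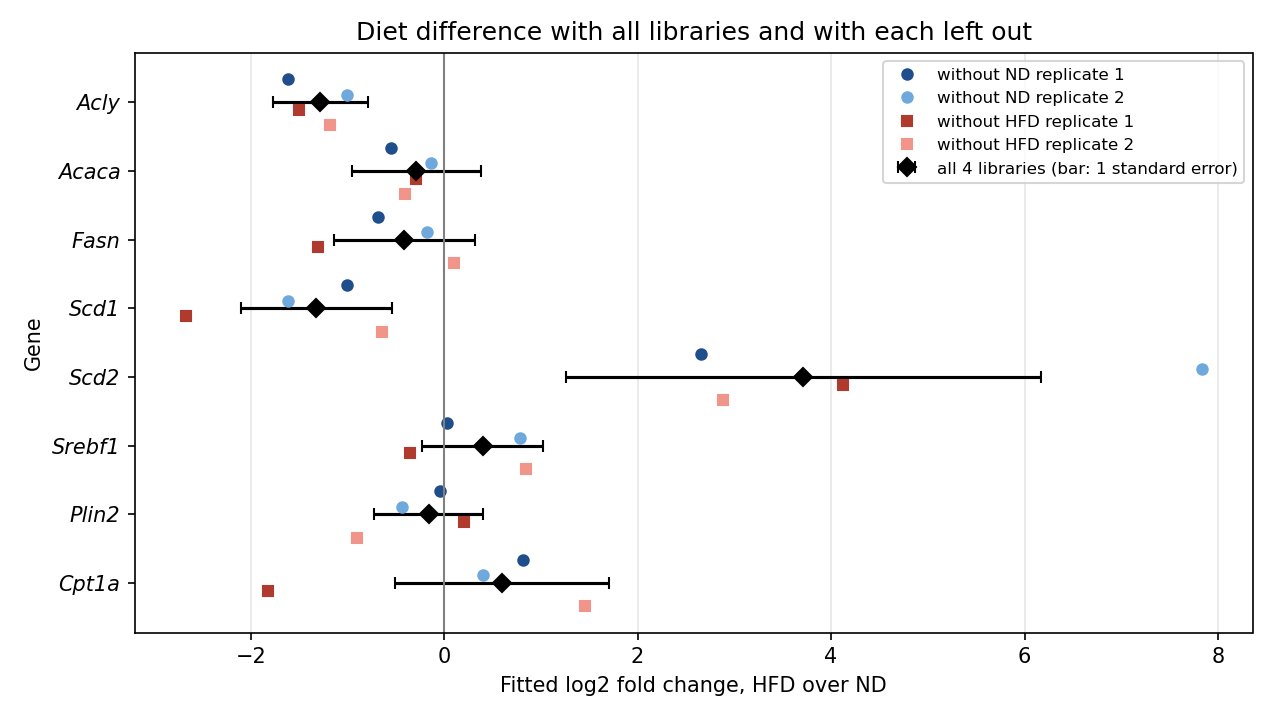
Fitted log2 fold change of each lipid gene, HFD over ND, with all 4 libraries (black diamonds, bars of 1 standard error) and after removing 1 library at a time (coloured points). Acly, Acaca and Scd1 stayed below 0 and Scd2 above 0, whereas Fasn, Srebf1, Plin2 and Cpt1a crossed 0 when 1 HFD library was left out.

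Scd2 was set beside markers of other cell types that an ovarian sort can hold, and the summed levels of these lists were carried by a few genes in each library. HFD replicate 2, the library with 2577 CPM of Scd2, had the highest sum of stromal markers (7674 CPM) and the lowest sum of germ cell markers (833 CPM, against 2289, 4492 and 2484 in the other libraries). Its stromal sum came from the collagens Col3a1 (2968 CPM) and Col1a1 (2741 CPM), from Postn (1272 CPM) and from Nr2f2 (639 CPM), while the stromal proteoglycans Dcn and Lum stood at 2.97 and 1.22 CPM. ND replicate 1, where Scd2 was below the background limit, had 2842 CPM of stromal markers, led by Col1a1 (1432 CPM), Lum (598 CPM) and Dcn (323 CPM), and 1972 CPM of blood markers, the latter at 1.79 to 5.24 CPM in the other libraries. The stromal sum was 67.4 CPM in ND replicate 2, with 167 CPM of Scd2, and 2220 CPM in HFD replicate 1, with 464 CPM of Scd2. The germ cell sum was led by Dazl in the ND libraries (1733 and 3770 CPM) and by Figla in HFD replicate 1 (611 CPM). In HFD replicate 2 most of it was Stra8 (664 CPM), while Dazl stood at 8.56 CPM.

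The pregranulosa sum of 1162 CPM in HFD replicate 2 was almost wholly Amhr2 (1113 CPM), and that of 402 CPM in ND replicate 2 was almost wholly Fst (383 CPM). Foxl2, which defines these cells, stood at 2.17 to 5.94 CPM in the 4 libraries and exceeded background in ND replicate 1 alone. Wt1 also exceeded it there alone and Wnt4 in HFD replicate 2 alone, while Lgr5, Krt19 and Gata4 did so in no library. In HFD replicate 1, Kdr gave 681 of 698 CPM of the endothelial sum and Star gave 190 of 196 CPM of the steroidogenic sum, and the other 4 genes of either list stood at 9.91 CPM or less there. Adipocyte markers, 7 genes that mark fat cells, summed to 9.61, 5.76, 6.81 and 17.6 CPM, and exceeded background for 2, 0, 0 and 1 genes. Adipoq, which defines fat cells, was below the limit in each library, at 1, 2, 6 and 13 counts. Macrophage markers summed to 5.12 to 26.0 CPM. The part of these cell types in the Scd2 values was not tested.

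**Figure D4:**
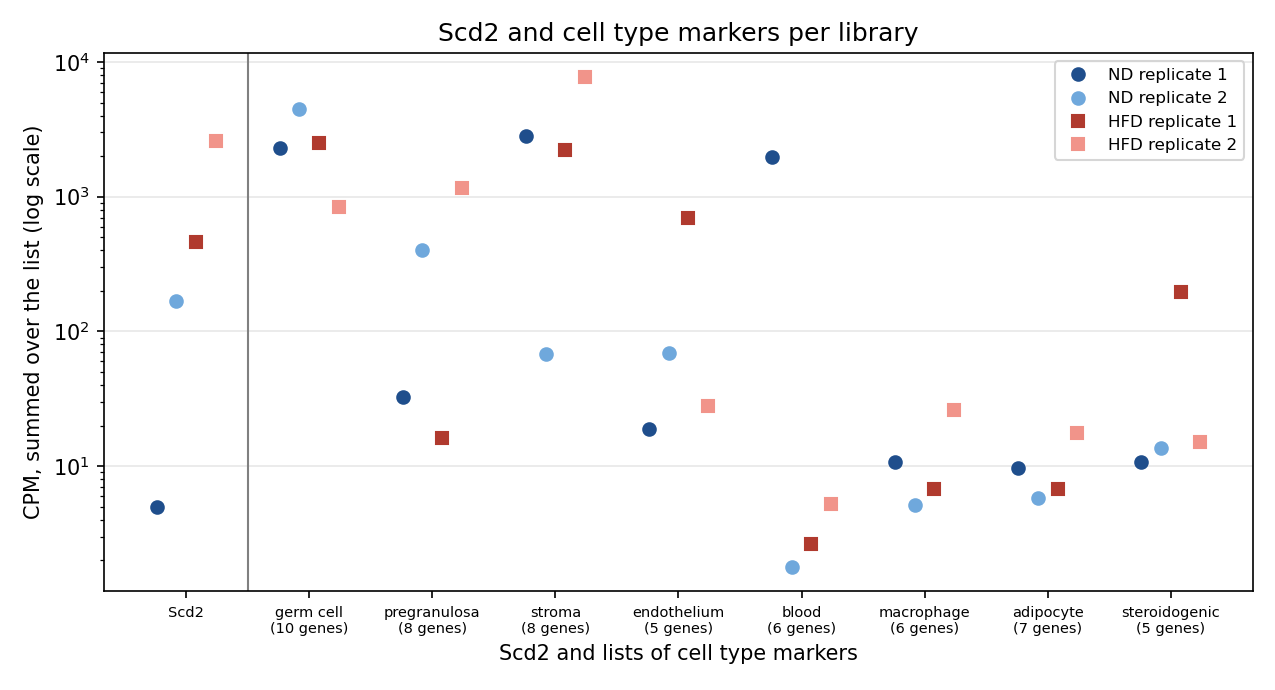
CPM of Scd2 and summed CPM of 8 lists of cell type markers (log scale) in each library. HFD replicate 2 had the highest Scd2 (2577 CPM) and stromal (7674 CPM) values and the lowest germ cell sum (833 CPM), and single genes carried some sums, such as Amhr2 with 1113 of 1162 CPM of the pregranulosa sum there.

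The other genes of lipid metabolism were read from 11 lists with 152 genes, of which 133 passed the filter. Of these, 0 were called higher and 0 lower by edgeR, and 3 were higher (2.26%) and 10 lower (7.52%) at an unadjusted p under 0.05, against 4.82% and 6.41% of all genes tested. With limma-voom 6 (4.51%) and 2 (1.5%) passed that limit, against 2.18% and 1.70% of all genes. Of the 133 genes, both HFD values were above both ND values for 17 and below them for 25. These patterns were shown by 13.9% and 13.4% of all genes tested. The median log2 fold change of the 133 genes was -0.04. Background was exceeded by 53, 44, 28 and 18 of the 152 genes in ND replicates 1 and 2 and HFD replicates 1 and 2, by 3 genes (Insig1, Agpat1 and Etfa) in all 4, and by 66 in none.

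**Figure D5:**
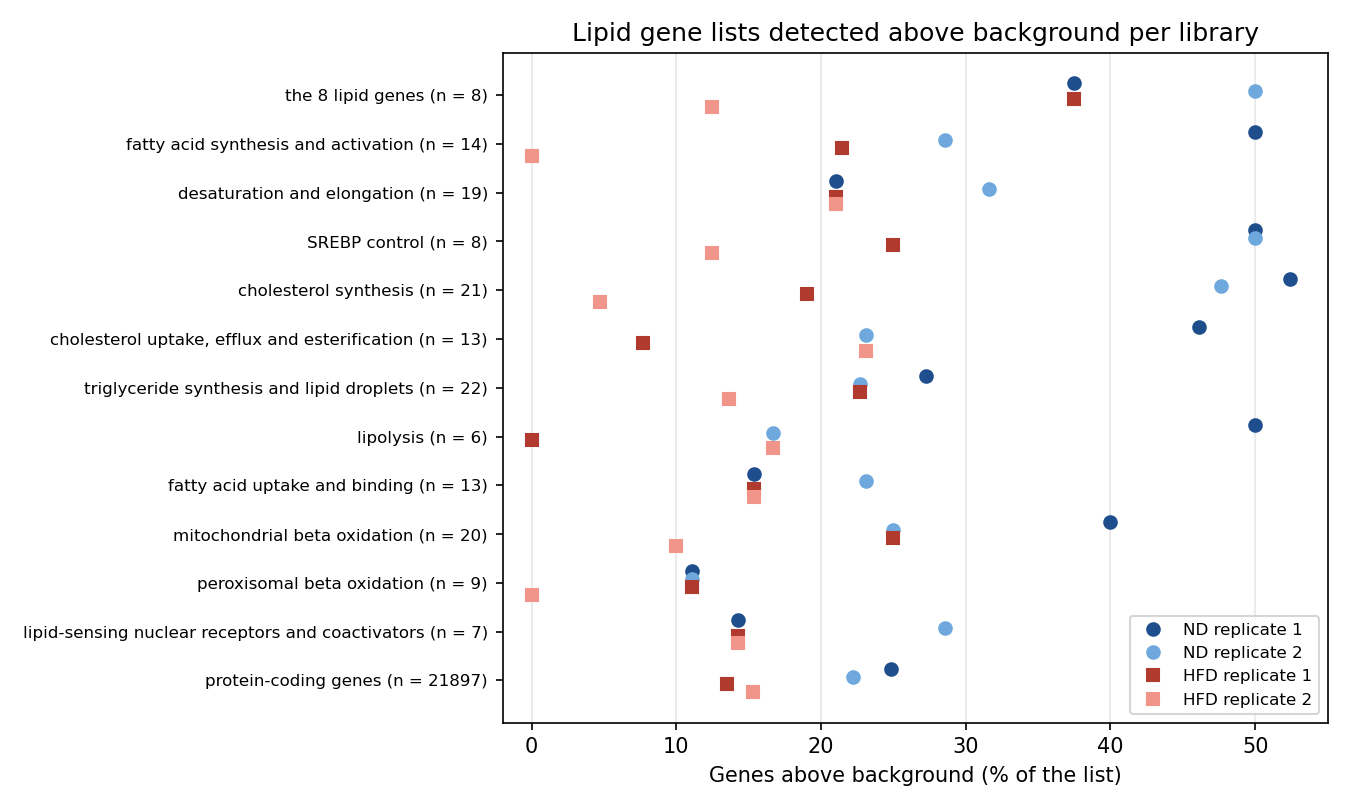
Percent of the genes of each lipid list that exceeded background in each library, with all protein-coding genes in the last row. In cholesterol synthesis 52.4% and 47.6% of 21 genes exceeded background under ND and 19.0% and 4.76% under HFD, where protein-coding genes gave 24.8%, 22.2%, 13.5% and 15.3%.

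Around Acly, Acaca and Fasn, 13 of 14 genes of fatty acid synthesis and activation were tested, with 0 higher and 2 lower at an unadjusted p under 0.05. The lower ones were Me1, malic enzyme, which supplies NADPH for fatty acid synthesis, and Oxsm, the mitochondrial 3-oxoacyl synthase. Me1 had 37 and 53 counts in ND and 11 and 21 in HFD (log2 fold change -1.24, SE 0.43, unadjusted p = 0.0264, adjusted p in edgeR = 0.406). Me1 was the gene whose pattern over the 4 libraries was nearest to that of Acly among 140 lipid genes. The Euclidean distance was 0.145 on centred log2(CPM + 1), taken from the same counts as the test. Oxsm had 12, 24, 3 and 2 counts and was below the background limit in each library. Among the more abundant genes of the list, Acsl1, which activates long-chain fatty acids, had 53, 30, 3770 and 46 counts, so that its high value was in HFD replicate 1 alone. Slc25a1, the citrate carrier that feeds Acly, had 24, 58, 347 and 18.

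Around the desaturases, 18 of 19 genes of desaturation and elongation were tested, with 1 higher and 1 lower at an unadjusted p under 0.05 and a median log2 fold change of -0.58. Tecr, the reductase of the last step of fatty acid elongation, was counted 5775 and 13751 times under ND and 22 times in each HFD library. Its log2 fold change was -8.42 (SE 2.38, unadjusted p = 0.0134, adjusted p in edgeR = 0.406). Hacd1, Hacd3 and Hacd4, dehydratases or dehydratase-like proteins of the preceding step, each had their highest counts in an HFD library, whereas Hacd2, named after its values were seen, had 14, 78, 9 and 26 (log2 fold change -1.27). Hacd3 had 14, 16, 515 and 36 counts, above background in both HFD libraries (log2 fold change 4.93, SE 1.73, unadjusted p = 0.0297). Hacd1 had 15, 46, 7 and 6866 counts, and Hacd4 had 18, 17, 2941 and 10. The lipid gene nearest to Scd2 in pattern was Agpat1, at a distance of 3.68. Fads6, a desaturase family member with 23, 25, 9 and 27 counts, was nearest to Acaca, at 0.120. Fads6 was below the background limit in each library.

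Around Srebf1, the 8 genes of SREBP control were all tested, with 0 higher and 1 lower at an unadjusted p under 0.05. The lower one was Scap, the sterol sensor that escorts SREBPs, named after its values were seen, with 79, 50, 7 and 33 counts (log2 fold change -1.57, unadjusted p = 0.0499). Srebf2, the factor of cholesterol synthesis, had 77 and 66 counts in ND and 24 and 21 in HFD (log2 fold change -1.22, SE 0.59, unadjusted p = 0.0840), and it was the gene nearest in pattern to Scd1. Insig1, which retains SREBPs in the endoplasmic reticulum and is itself an SREBP target, exceeded background in each library, with 607, 765, 149 and 1185 counts and a log2 fold change of -0.04. Slc27a1, a fatty acid transporter, was nearest in pattern to Srebf1.

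In cholesterol synthesis, 19 of 21 genes were tested, with a median log2 fold change of -0.59. Background was exceeded by 11, 10, 4 and 1 of the 21 genes. Hmgcs1, which makes HMG-CoA early in the route, had 53, 395, 8 and 4500 counts, so that its high value was in HFD replicate 2 alone.

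For uptake, efflux and esterification of cholesterol, 12 of 13 genes were tested, with 0 higher and 1 lower at an unadjusted p under 0.05. Abcg1, a sterol exporter, had 291 and 177 counts in ND and 11 and 64 in HFD (log2 fold change -2.56, SE 0.94, unadjusted p = 0.0363). Soat1, which esterifies cholesterol for storage, had 1214, 380, 56 and 740.

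Around Plin2, 17 of 22 genes of triglyceride synthesis and lipid droplets were tested, with 0 higher and 1 lower at an unadjusted p under 0.05. Agpat1, which adds the second acyl chain of phosphatidic acid, exceeded background in each library, with 55 and 145 counts in ND and 303 and 592 in HFD (log2 fold change 2.38, SE 1.12, unadjusted p = 0.0819). Its groups did not overlap, as those of Scd2. Bscl2 (seipin), which shapes nascent droplets, had 48 and 53 counts in ND and 9 and 19 in HFD (log2 fold change -1.61, SE 0.39, unadjusted p = 0.00576, adjusted p in edgeR = 0.406). Bscl2 exceeded background in ND replicate 2 alone. In lipolysis, 5 of 6 genes were tested, with 1 higher and 1 lower at an unadjusted p under 0.05, and the 2 were lipases of triglyceride breakdown. Pnpla2, which starts it, had 32 and 45 counts in ND and 8 and 4 in HFD (log2 fold change -2.14, unadjusted p = 0.0374), while Lipe, the hormone-sensitive lipase, had 21 and 8 in ND and 28 and 66 in HFD (log2 fold change 1.94, unadjusted p = 0.0147) and was below the background limit in each library.

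Around Cpt1a, 16 of 20 genes of mitochondrial beta oxidation were tested, with 0 higher and 2 lower at an unadjusted p under 0.05. Acadl, the long-chain acyl-CoA dehydrogenase, had 33 and 28 counts in ND and 8 and 13 in HFD (log2 fold change -1.22, SE 0.34, unadjusted p = 0.0105). Eci2, an enoyl-CoA isomerase, had 666, 35, 13 and 18, so that its log2 fold change of -4.07 (unadjusted p = 0.0354) came with 1 high ND library. Cpt2, the partner of Cpt1a on the inner membrane, had 23, 37, 17 and 15 counts and was nearest in pattern to Fasn. The subunits of the trifunctional protein were high in different libraries, with 64, 23, 10477 and 88 counts for Hadha and 4067, 46, 22 and 32 for Hadhb (log2 fold change -5.83, unadjusted p = 0.0517). The subunits of the electron transfer flavoprotein also differed, with 20, 302, 2508 and 28 counts for Etfa and 2414, 12, 2756 and 4 for Etfb. Hadhb and Etfa were named after their values were seen, as partners of Hadha and Etfb. Echs1, the short-chain hydratase, had 60, 52, 3589 and 91 counts. Rxrb, a nuclear receptor partner, was nearest in pattern to Cpt1a, with 48, 21, 55 and 8 counts.

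Of 9 genes of peroxisomal beta oxidation, 9 were tested, with 1 higher and 0 lower at an unadjusted p under 0.05. Abcd3, a peroxisomal fatty acid transporter, had 18, 31, 2585 and 45 counts (log2 fold change 6.50, SE 2.58, unadjusted p = 0.0471). For uptake and binding of fatty acids, 9 of 13 genes were tested and 0 had an unadjusted p under 0.05. Slc27a4, a fatty acid transport protein, had 46, 35, 7 and 12359 counts. The 7 lipid-sensing nuclear receptors and coactivators were tested, with 0 at an unadjusted p under 0.05, and the groups overlapped for each of them. Ppard was nearest in pattern to Plin2, with 46, 36, 15 and 59 counts.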

How the data were processed

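The 4 libraries of fetal oocyte RNA, 2 ND and 2 HFD, were grouped by the submitters' labels. The authors trimmed reads with Trim Galore after FastQC, aligned them to mm10 with HISAT2 and assigned them to genes with featureCounts, and they deposited raw counts per Ensembl gene, 1 table per library, without normalization. The annotation release, the strand setting and the treatment of reads with several alignments are not given in the sources used here. GENCODE M21 (GRCm38, the same assembly as mm10) named 55141 of the 55401 identifiers and left 260 unnamed. Total counts were 8223255 and 7815015 (ND) and 6456825 and 5723605 (HFD), and 3 counts served as the floor. Poisson intervals and floors cover counting error only, as reads carry no molecular identifiers.

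The diets were compared with edgeR 4.0.16 (quasi-likelihood test, TMM, filterByExpr, Benjamini-Hochberg adjustment over 19335 genes, called at an adjusted p under 0.05 and a fold change over 1.5) in R 4.3.3. Alternatives were DESeq2 1.42.0 (on all genes, and on the filtered genes), limma-voom 3.58.1, edgeR's legacy fit, RLE factors, library size only, no filter, at least 10 counts in every library, a replicate block, each library left out, and calls without a fold change minimum. The code was tested on simulated data. Standard errors were obtained by dividing the absolute log2 fold change by the root of the F statistic.

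The 8 genes and the gene lists were chosen with earlier results of these data known. Named besides the 8 are Scd3 and Scd4, up to 3 genes of the highest mean CPM per list (of which some are not printed), up to 12 list genes with the smallest p whose groups did not overlap, and the gene nearest in pattern to each of the 8. RefSeq promoters were listed for 6 of the 8 genes and none is printed. Some listed genes are not reported here. Bisulfite data and time-restricted feeding were not analysed here.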

Additional observations from a re-analysis of the deposited data

How the results depend on the processing

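Of 102 refits of the 8 lipid genes, 96 kept the direction and 6 turned it. Fasn became 0.11 without HFD replicate 2, Srebf1 -0.35 without HFD replicate 1, Plin2 0.19 with library sizes only and 0.21 without HFD replicate 1, and Cpt1a -0.10 with the replicate block and -1.82 without HFD replicate 1. With 1 library left out, the log2 fold change ran from -1.31 to 0.11 for Fasn, from -0.35 to 0.85 for Srebf1, from -0.90 to 0.21 for Plin2 and from -1.82 to 1.46 for Cpt1a. The cause was not tested. Scd2 passed the limit with DESeq2 on all genes (log2 fold change 3.61) and in no other refit. Genes called higher and lower numbered 0 and 0 in the main test, with limma-voom, with the replicate block, under the other scalings and filters, without a fold change minimum and with each library left out, 12 and 22 with edgeR's legacy fit, 1360 and 1179 with DESeq2 on all genes, and 1039 and 1063 with DESeq2 on the filtered genes. The lipid lists gave 133 of 19335 genes tested in the main test, and 152 of 49005 with no filter or DESeq2 on all genes. With 4 libraries, the lists' share higher at an unadjusted p under 0.05 exceeded that of all genes with DESeq2 and limma-voom only. It was 7.89% against 3.41% (DESeq2, all genes) and 14.3% against 9.75% (filtered genes), but 2.26% against 4.82% in the main test. The share lower fell below that of all genes only under library size scaling and limma-voom. Genes of the lipid lists at an unadjusted p under 0.05 are given with the count over all genes in parentheses. Those higher (3, where all genes gave 932) numbered 5 with library sizes only (783), 5 with no filter (1765), 12 with DESeq2 on all genes (1670), 19 with DESeq2 on the filtered genes (1885), 6 with limma-voom (422), 1 with the replicate block (635) and 2 to 18 with 1 library left out (956 to 2121). Those lower (10, where all genes gave 1239) numbered 5 with library sizes only (813), 6 with edgeR's legacy fit (699), 2 with limma-voom (328), 6 with the replicate block (847), 14 with no filter (2266), 12 with DESeq2 on the filtered genes (1721) and 12 to 15 with 1 library left out (1556 to 1893). The correlation of deviations from the diet means over genes was 0.0112 for same-numbered libraries and -0.0112 for ND replicate 1 with HFD replicate 2. With 2 libraries per diet these values mirror each other. They cannot decide whether replicate numbers pair the libraries. With the 95th percentile of the olfactory receptor genes as background, 8 of 8 lipid genes exceeded it in ND replicate 1, and with 3 counts as the sole limit 8 of 8 did so in each library. With exon lengths reduced by the share of windows found in other genes, a setting added after the data were seen, 4, 5, 3 and 1 exceeded background, Acaca joining in both ND libraries. This setting shortened the 8 genes only, and the olfactory receptor genes kept their full exon lengths. The median log2 fold change of the 8 genes (-0.22) was -0.83 to -0.15 with 1 library left out. Under TMM, 11 of 32 CPM values left their Poisson interval. With at least 10 counts required in every library, Scd1 and Plin2 gave no value. Counts near the background limit restrict what can be said of the genes other than Scd2.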
